A study of Homo sapiens with 4 samples.

Results

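The TEAD4 sites described here lie around 7 genes of the WNT pathway and of gastrointestinal stem cells: LGR5, RNF43, ZNRF3, AXIN2, CTNNB1, TCF7L2 and CD44. A site counted as near a gene when the midpoint of its peak was within 100 kb of the gene start on hg19, and the rule for taking peaks used their position alone. This gave 66 peaks of 51017 in all, of which 60 came from the MKN28 list of 39477 peaks and 6 from the SNU216 list of 11540. TEAD4, a transcription factor through which YAP and TAZ, the effectors of the Hippo pathway, reach DNA, was mapped by chromatin immunoprecipitation and sequencing (ChIP-seq) in MKN28 and SNU216, both human gastric cancer cell lines. Each line gave 1 library with a TEAD4 antibody and 1 input library without antibody, and the labels name no treatment, genotype change or time point. MKN28 is recorded in cell line registers as a derivative of another gastric cancer line, MKN74. The lists hold peaks and no expression values, so neither the identity of the lines nor the activity of the genes was checked against markers.

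In WNT signalling, ligands bound by Frizzled and LRP receptors stop the destruction complex, to which AXIN2 belongs, from marking β-catenin (CTNNB1) for degradation. Stabilised β-catenin enters the nucleus and acts with TCF factors such as TCF7L2 on target genes, among which are AXIN2, LGR5, RNF43 and ZNRF3 themselves, as well as CD44. RNF43 and ZNRF3 are membrane ubiquitin ligases that remove Frizzled receptors, and LGR5, a receptor for R-spondins, helps to relieve that brake. LGR5 marks stem cells of the intestine and of the stomach glands.

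With 1 library per line, no value below has a replicate check, and the differences between lines describe these 2 libraries without a test. The score of a peak is the value given by the authors' peak caller. It is not scaled between lists, so each peak is also given its percentile of score within its own list, where 100 is the strongest. Sequencing depth is unknown because the lists carry no read counts. A peak in a window is not assigned to the gene, since each window can also hold neighbouring genes. A gene without a peak had no site above the authors' threshold, and weaker binding there cannot be seen in the lists.

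RNF43 was 1 of the 2 genes with peaks in both lines, and its strongest MKN28 peak had the highest MKN28 score of the 7 windows. RefSeq (GRCh38.p14) gave promoter sequences, 250 bases before to 50 after a start, for 4 of the 7 genes: RNF43, TCF7L2, CTNNB1 and CD44. RNF43 had 2 starts in that table, the second 14.8 kb downstream of the first, and TCF7L2 had 3. The 2 RNF43 promoters are shown because the strongest RNF43 peak of both lines lay at nearly that distance from the gene start. They are at chr17:58417485-58417784 and chr17:58402672-58402971 on GRCh38.p14, minus strand. Capitals mark the TEAD core CATTCC, searched with its reverse complement GGAATG, and the AP-1 motif TGANTCA, which reads the same on both strands. No matches overlapped.
RNF43 first start: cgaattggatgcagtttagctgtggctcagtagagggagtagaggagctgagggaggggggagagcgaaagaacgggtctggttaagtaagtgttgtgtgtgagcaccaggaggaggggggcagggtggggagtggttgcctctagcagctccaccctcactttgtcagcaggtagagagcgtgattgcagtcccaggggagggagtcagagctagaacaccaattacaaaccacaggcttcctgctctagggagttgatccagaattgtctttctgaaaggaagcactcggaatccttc
RNF43 second start: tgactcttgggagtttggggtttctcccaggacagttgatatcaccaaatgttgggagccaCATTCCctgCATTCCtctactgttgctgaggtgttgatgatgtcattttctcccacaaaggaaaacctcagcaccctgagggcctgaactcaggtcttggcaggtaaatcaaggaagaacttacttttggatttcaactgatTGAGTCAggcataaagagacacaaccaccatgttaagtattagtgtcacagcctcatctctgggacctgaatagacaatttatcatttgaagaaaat
The promoter of the first start held neither motif. That of the second start held CATTCC at 2 places, counted from the first base shown at 62 and 71, and TGAGTCA at 204. Of all 35116 RefSeq promoters of 300 bases, 14.03% held the TEAD core at least once, 1.37% held it 2 or more times, and 7.71% held the AP-1 motif. At least 1 of each was found in 509 of them (1.45%). The promoters of TCF7L2, CTNNB1 and CD44 in the table held neither motif. These matches describe the letters of the reference sequence and not binding.

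TEAD4 peaks were numerous around most of these genes in MKN28 and absent around most of them in SNU216. In MKN28, ZNRF3 had 16 peaks, RNF43 and TCF7L2 had 11 each, AXIN2 and CTNNB1 had 9 each, and LGR5 and CD44 had 2 each. In SNU216, CD44 had 4 peaks, RNF43 had 2, and LGR5, ZNRF3, AXIN2, CTNNB1 and TCF7L2 had none. CD44 was thus the only gene of the 7 with more peaks in SNU216 than in MKN28. Of 15169 stretches of 200 kb across the genome, 9446 held no SNU216 peak, so its absence at 5 of the 7 genes was near that background. The ratio of MKN28 to SNU216 peaks was 10 in the 7 windows together, against 3.42 for the whole lists. That ratio was lower within 200 kb of the starts, where the counts were 107 and 17.

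**Figure D1:**
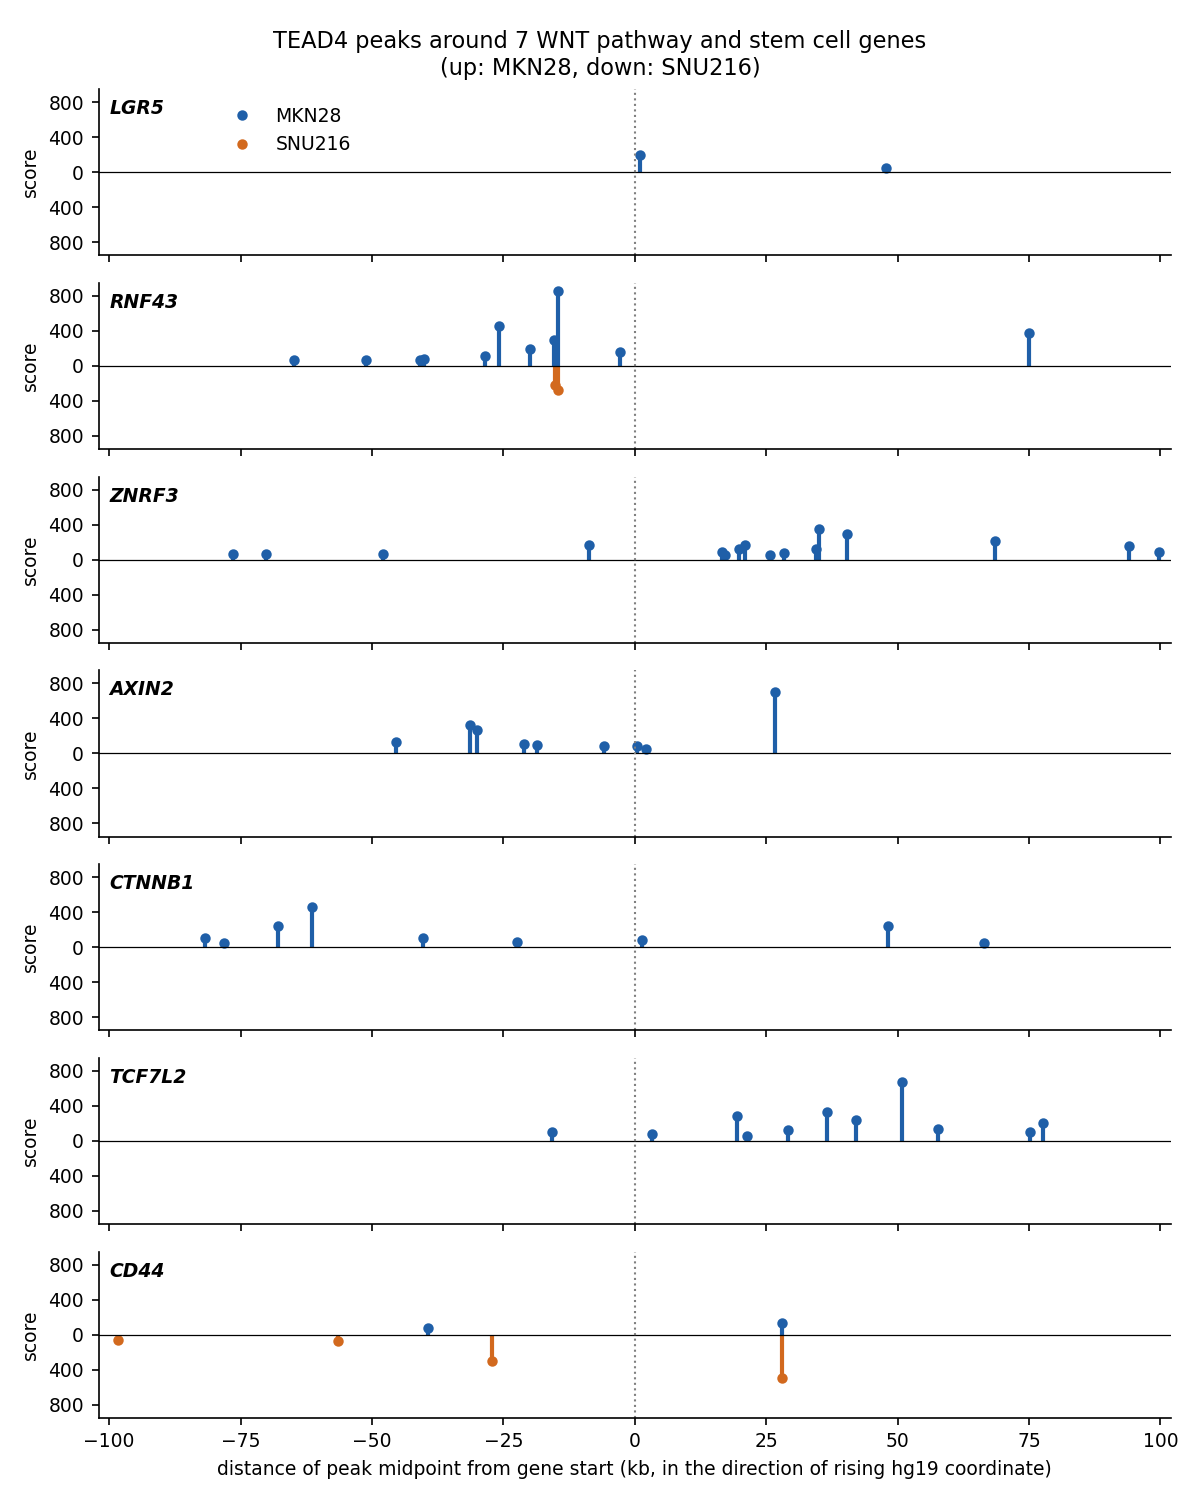
Distance of each peak midpoint from the gene start (x axis, kb, in the direction of rising hg19 coordinate) and the authors' score (y axis), with MKN28 peaks drawn upward and SNU216 peaks downward, for the 7 genes. SNU216 peaks stand only in the RNF43 and CD44 panels, and the highest point is the MKN28 peak of RNF43 with a score of 859.

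For a background, chromosomes 1 to 22 and X were cut into 15169 tiles of 200 kb, the length of a gene window. At least 1 MKN28 peak was found in 68.4% of the tiles and at least 1 SNU216 peak in 37.7%, with a mean of 2.60 MKN28 and 0.758 SNU216 peaks per tile. At least as many MKN28 peaks as at ZNRF3 were found in 0.547% of the tiles, as at RNF43 or TCF7L2 in 2.93%, and as at AXIN2 or CTNNB1 in 5.95%. The 2 MKN28 peaks at LGR5 or CD44 were ordinary, being reached by 50.01% of tiles. The 4 SNU216 peaks at CD44 were reached by 4.90% of tiles and the 2 at RNF43 by 17.6%. The finding of 2 genes of 7 with an SNU216 peak is close to the tile background. Among the 902 tiles with 9 or more MKN28 peaks, 15.1% had no SNU216 peak, whereas 4 of the 5 genes with that many MKN28 peaks had none. The limit of 9 is the lowest count of those 5 genes and was chosen after the counts were seen, so this contrast is no test. The tiles cover whole chromosome lengths with no stretch left out, and 4790 of them held no MKN28 peak. They are not centred on gene starts, and a background of windows around other genes was not computed. With 5 genes being few as well, these shares are given as a description.

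**Figure D2:**
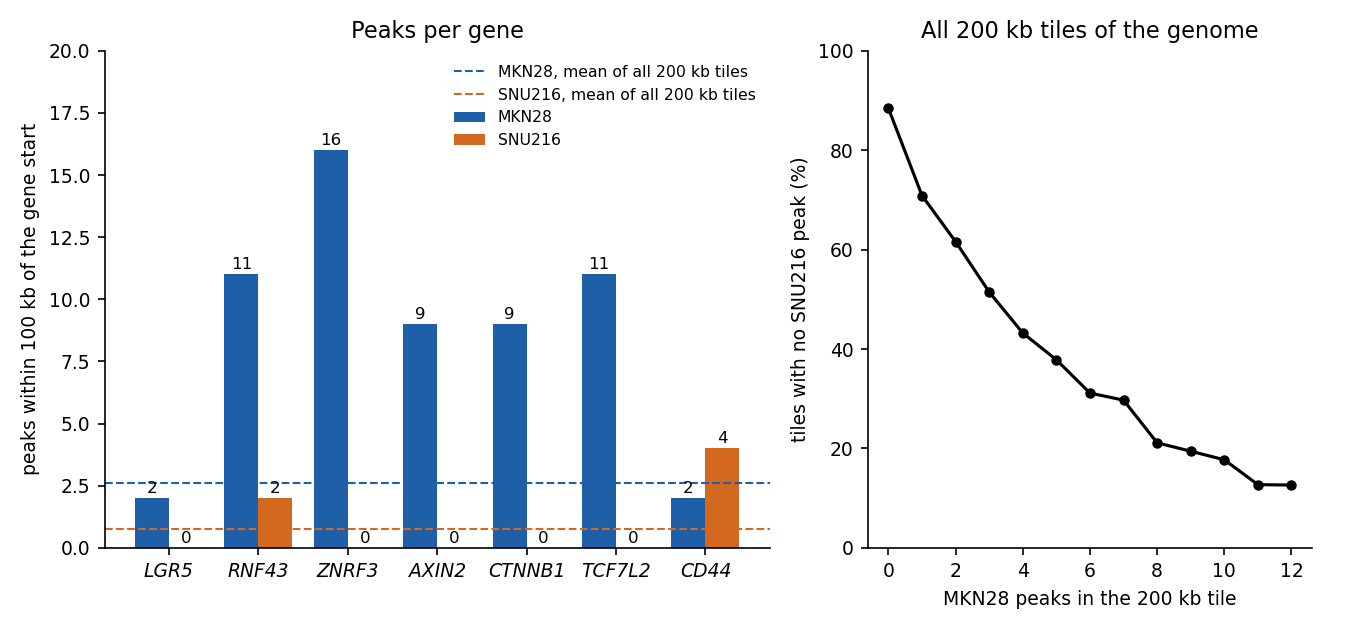
Left, peaks within 100 kb of each gene start (bars) in MKN28 and SNU216, with dashed lines at the means over all 200 kb tiles, 2.60 and 0.758. Right, percent of tiles with no SNU216 peak (y axis) by the number of MKN28 peaks in the tile (x axis, up to 12), which falls from 88.4% at 0 MKN28 peaks to 12.6% at 12.

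Few of the peaks near these genes were called in both lines. Of the 60 MKN28 peaks, 3 overlapped an SNU216 peak by at least 1 bp (5.00%, exact Clopper-Pearson 95% interval 1.04 to 13.9), against 17.1% of the whole MKN28 list. Within 50 kb of the starts the interval, 1.46 to 19.1, held the share of the list, as it did when both lists were limited to scores of 100 and above. In SNU216, 3 of the 6 peaks had an MKN28 partner (50%, 11.8 to 88.2), against 59.3% in its whole list. The intervals cover counting error only, and peaks that lie side by side are not independent draws. All of these overlaps were at RNF43 and CD44. The SNU216 share lay near its background and is no result about these genes. The other 57 MKN28 peaks lay a median of 111.5 kb, and at least 4.25 kb, from the nearest SNU216 peak.

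The MKN28 peaks near these genes were of middling strength for their list. Their scores ran from 50.5 to 859 with a median of 116, beside 99.8 for all MKN28 peaks, and 36 of 60 scored at least 100, or 60%, against 49.9% of the list. The 60 peaks had a median width of 528.5 bp, and the list 525 bp. When the MKN28 list was divided by score into 10 equal groups, the top group, with scores of 422 and above, held 5 of the 60 peaks. These were 2 at RNF43 and 1 each at AXIN2, TCF7L2 and CTNNB1. Of those 5 strong peaks, 1 overlapped an SNU216 peak, where the background for the top group was 50.2%. With only 5 peaks, 2 of them in the same window, no interval was computed and the difference is no result about these genes. The 6 SNU216 peaks scored from 58.6 to 497.

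**Figure D3:**
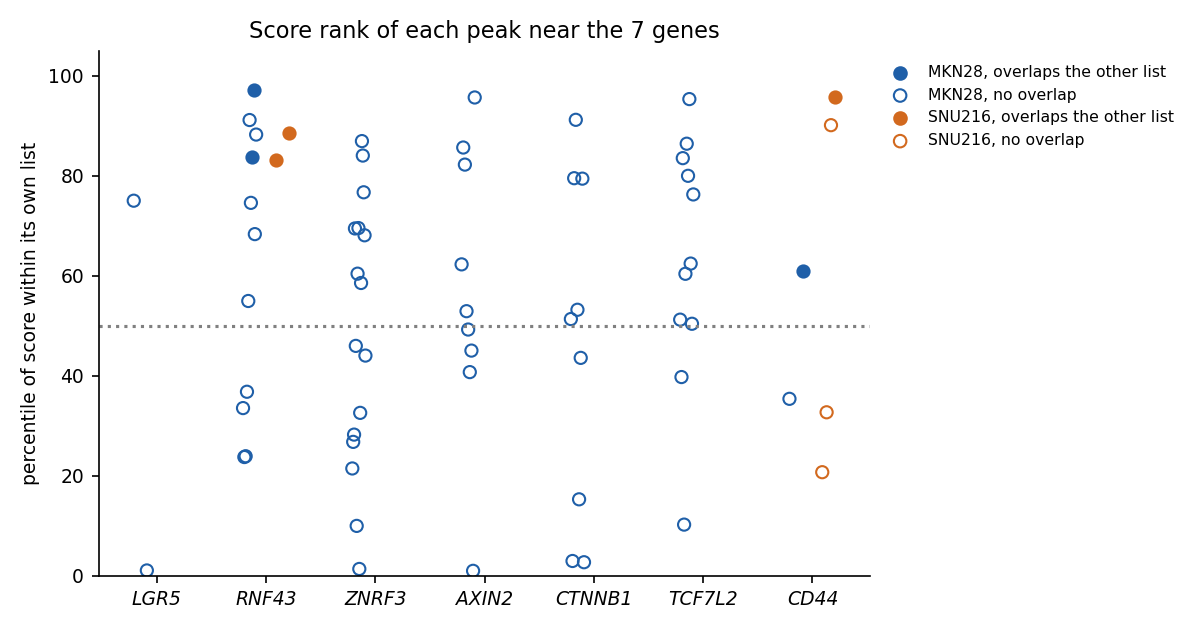
Percentile of each peak's score within its own list (y axis) for the 7 genes (x axis). Filled points overlap a peak of the other list and open points do not, and the 6 filled points are those of RNF43 and CD44, between the percentiles 60.9 and 97.2.

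LGR5, the R-spondin receptor and stem cell marker (chromosome 12, band 12q21.1, start at 71833550), had one clear MKN28 peak beside its start. That peak (chr12:71834131-71835147) had its midpoint 1.09 kb from the start, on the side of higher coordinates, and scored 198 (percentile 75.01). Its width of 1017 bp was at the percentile 96.3 of the list, so it was broad for MKN28 although of moderate score. The other MKN28 peak lay 47.7 kb away and scored 50.5, close to the lowest score of the list. No SNU216 peak was called within 100 kb. The nearest (chr12:71946611-71947251) was 113 kb away with a score of 137 and overlapped an MKN28 peak with a score of 440 (chr12:71946466-71947324). Between 100 and 200 kb from LGR5, each line had 2 peaks, and all 4 overlapped a peak of the other list. At the LGR5 start a peak was thus called in MKN28 only, while farther out the lists had peaks in common. Of all MKN28 peaks with scores from 167 to 244, 24.1% overlapped an SNU216 peak, so most peaks of that strength had no partner. Weaker SNU216 binding at the LGR5 start cannot be seen in the lists. TSPAN8 and ZFC3H1 are the protein-coding neighbours of LGR5 in RefSeq.

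RNF43, the ubiquitin ligase that limits Frizzled receptors (chromosome 17, band 17q22, start at 56494931, minus strand), had the strongest MKN28 peak of all 7 windows. That peak (chr17:56479936-56480665) scored 859, at the percentile 97.2 and at rank 1112 of the MKN28 list. It spanned 14.3 to 15.0 kb downstream of the start. A second MKN28 peak (chr17:56479393-56479890) with a score of 292 followed after a gap of 45 bp.
SNU216 had a pair of peaks at the same place. The first (chr17:56480034-56480469), with a score of 277 and the percentile 88.5, lay wholly within the strongest MKN28 peak, 14.5 to 14.9 kb downstream of the start. The second (chr17:56479402-56479996), with a score of 214 and the percentile 83.1, was 37 bp from the first and overlapped both MKN28 peaks. Both lines therefore showed a double peak over the same stretch, and all 4 peaks were at or above the percentile 83.1 of their list. The distance of 14.8 kb between the 2 RefSeq starts of RNF43 falls within the distances spanned by the first SNU216 peak and the strongest MKN28 peak. The starts are known here on GRCh38.p14 and the peaks on hg19, the gene start of the peak rule may not be the first RefSeq start, and coordinates were not moved between builds. Whether these peaks cover the second start was not tested.
The other 9 MKN28 peaks of RNF43 had no SNU216 counterpart. The strongest of them (chr17:56468712-56469467) scored 458, at the percentile 91.1, and lay 25.8 kb downstream of the start. The nearest to the start (chr17:56491885-56492400) scored 158 and lay 2.79 kb downstream. In all, 10 of the 11 MKN28 peaks lay on the downstream side, toward the neighbour SUPT4H1. The only upstream peak, with a score of 376, was 75.1 kb away on the side of HSF5. Beyond the pair, the nearest SNU216 peak was 394 kb from the start, with a score of 58.1.

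**Figure D4:**
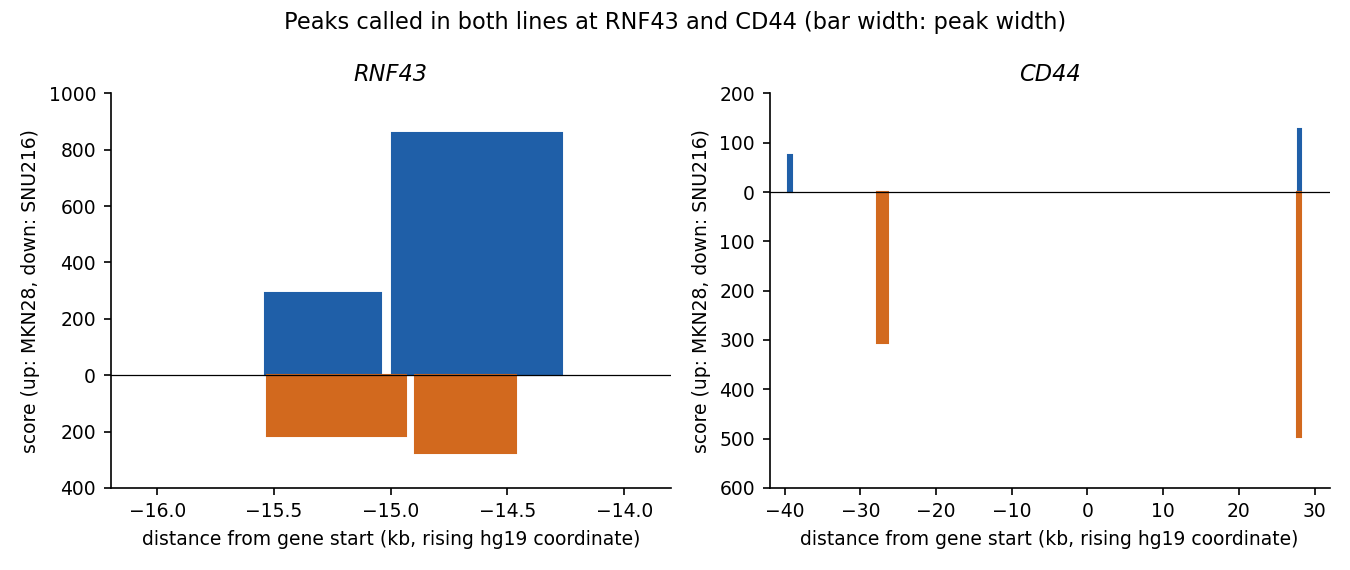
Peaks of MKN28 (upward) and SNU216 (downward) at RNF43, in the stretch of the double peak, and at CD44, between 42 kb on the lower and 32 kb on the higher side. The x axis is the distance from the gene start in kb (negative is downstream for RNF43 and upstream for CD44), the y axis is the authors' score, and the width of a bar is the width of the peak. At RNF43 the scores are 292 and 859 in MKN28 and 214 and 277 in SNU216. At CD44 the overlapping peaks score 497 in SNU216, at 27.9 kb, and 129 in MKN28. Scores are not scaled between lists, so bar heights cannot be compared between the lines.

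ZNRF3, the ligase related to RNF43 (chromosome 22, band 22q12.1, start at 29279755), had the most MKN28 peaks of the 7 genes and no SNU216 peak. The scores of its 16 peaks ran from 50.7 to 347 around a median of 106, and none was in the top group by score. Of these, 12 lay on the side of higher coordinates, and 9 of the 12 stood between 16.6 and 40.5 kb from the start. The strongest (chr22:29314519-29315158), with a score of 347 and the percentile 86.9, was 35.1 kb away and 29 bp from a neighbour with a score of 121. The second strongest, with a score of 296, followed at 40.5 kb. The peak nearest the start (chr22:29270727-29271446) scored 164 and lay 8.67 kb toward lower coordinates, on the side of XBP1. The nearest SNU216 peak was 423 kb away with a score of 52.9, near the lowest of its list. Within 1 Mb of ZNRF3 there were 59 MKN28 and 6 SNU216 peaks, so that SNU216 gave 9.23% of them. On chromosome 22 as a whole it gave 15.2%, and over both lists 22.6%. A low SNU216 share was therefore also found in the surroundings of ZNRF3. The share depends on both counts. Of the 7 genes, only AXIN2, with 63, had more MKN28 peaks within 1 Mb, and LGR5, with 4, had fewer SNU216 peaks.

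AXIN2, a scaffold of the destruction complex and a common readout of WNT activity (chromosome 17, band 17q24.1, start at 63557740), had 9 MKN28 peaks and no SNU216 peak. The strongest (chr17:63583689-63584994) scored 697, at the percentile 95.7, and at 1306 bp was the widest MKN28 peak in the 7 windows. It lay 26.6 kb from the start on the side of higher coordinates, toward CEP112. A pair of peaks with scores of 324 and 271, separated by 647 bp, lay 31.4 and 30.1 kb away on the other side. The peak nearest the start (chr17:63557944-63558200) was 0.332 kb from it, the shortest distance in the 7 windows. It was narrow, at 257 bp, and of moderate score, at 89.9 (percentile 45.0). A further peak at 2.18 kb scored 50.5. TEAD4 was thus called next to the AXIN2 start in MKN28, and the strong site was farther out. The nearest SNU216 peak was 116 kb away with a score of 52.6. Peaks were not scarce in SNU216 around AXIN2 at a larger scale: within 1 Mb there were 20, against 63 in MKN28, or 24.1% of both.

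CTNNB1, which encodes β-catenin (chromosome 3, band 3p22.1, start at 41240942, plus strand), had 9 MKN28 peaks and no SNU216 peak. The strongest (chr3:41179130-41179822) scored 460, at the percentile 91.2, and lay 61.5 kb upstream. It was one of 4 peaks between 61.5 and 81.8 kb upstream, whose other scores were 239, 102.5 and 51.5. A peak with a score of 239 lay 48.3 kb downstream, toward ULK4. The peak nearest the start (chr3:41242091-41242646) scored 87.7 and lay 1.43 kb downstream. The nearest SNU216 peak was 203 kb away with a score of 61.0 and overlapped an MKN28 peak with a score of 739. On chromosome 3 SNU216 gave 30.4% of the peaks of both lists, the highest share of the 6 chromosomes here, and within 1 Mb of CTNNB1 it gave 20.5%.

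TCF7L2, the TCF factor through which β-catenin acts on DNA (chromosome 10, band 10q25.2, start at 114710009, plus strand), had 11 MKN28 peaks, 10 of them downstream, and no SNU216 peak. The strongest (chr10:114760437-114761211) scored 675, at the percentile 95.3, and lay 50.8 kb downstream. Peaks with scores of 336, 289 and 244 lay 36.6, 19.5 and 42.1 kb downstream. The strong sites of TCF7L2 thus formed a series from 19.5 to 50.8 kb past the start. The peak nearest the start (chr10:114712968-114713492) scored 81.5 and lay 3.22 kb downstream. With 9 of 11 peaks at a score of at least 100, TCF7L2 kept most of its peaks at that limit. The nearest SNU216 peak was 101 kb upstream, just past the limit, with a score of 57.9. Between 100 and 200 kb from the start, SNU216 had 5 peaks, with scores up to 242, and 4 of these overlapped an MKN28 peak. The absence of SNU216 peaks at TCF7L2 therefore holds for the 100 kb window and not for 200 kb.

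CD44, the hyaluronan receptor used as a marker of gastric cancer stem cells (chromosome 11, band 11p13, start at 35160417, plus strand), showed the opposite balance. SNU216 had 4 peaks and MKN28 had 2, although within 50 kb of the start both had 2. The strongest SNU216 peak in the 7 windows (chr11:35188042-35188663) lay 27.9 kb downstream of the start and scored 497, at the percentile 95.8 and at rank 481 of its list. It held the whole of an MKN28 peak (chr11:35188224-35188661) with a score of 129, at the percentile 60.9. The same site was therefore a leading peak of the SNU216 list and an average one of the longer MKN28 list.
The second SNU216 peak (chr11:35132623-35134011) lay 27.1 kb upstream, scored 306 (percentile 90.1) and had no MKN28 counterpart. At 1389 bp it was the widest peak in the 7 windows, at the percentile 99.6 of width in SNU216. The nearest MKN28 peak, with a score of 75.8, was 11.3 kb from it. The other SNU216 peaks were weak, with scores of 66.3 at 56.5 kb and 58.6 at 98.2 kb upstream, toward PDHX. Neither line had a peak nearer to the CD44 start than these sites, at 27.1 and 27.9 kb in SNU216 and 28.03 kb in MKN28.
SNU216 peaks were frequent around CD44 at a larger scale too. Within 1 Mb there were 29, against 41 in MKN28, which is 41.4% of both and the highest share of the 7 genes. On chromosome 11 as a whole the share was 25.05%.

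**Figure D5:**
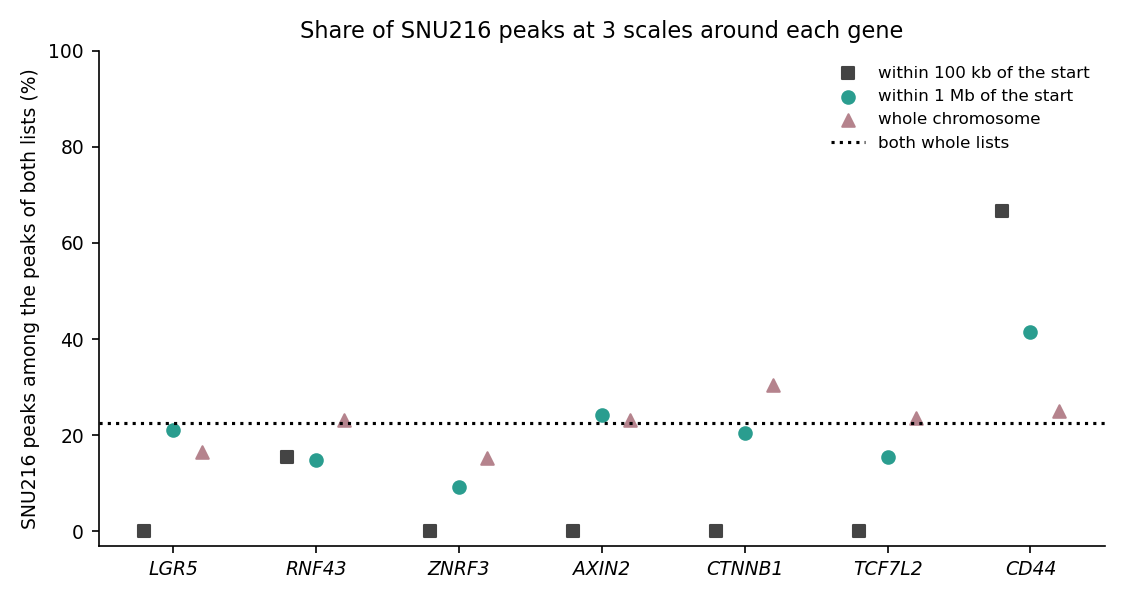
SNU216 peaks as a percent of the peaks of both lists (y axis) within 100 kb of the gene start, within 1 Mb and on the whole chromosome, for the 7 genes (x axis), with a dotted line at 22.6% for both whole lists. CD44 stands above the line at all 3 scales (41.4% at 1 Mb), and ZNRF3 and LGR5 lie below it at all 3.

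Of the 60 MKN28 peaks, 6 had their midpoint within 5 kb of a start, at 5 genes: AXIN2 with 2, and LGR5, RNF43, TCF7L2 and CTNNB1 with 1 each. The windows reach 100 kb to each side, so most of their length lies beyond 5 kb. No background of distance was computed, and whether peaks were nearer to or farther from the starts than usual was not tested. No peak of either list covered a gene start itself. None of the 6 SNU216 peaks was within 5 kb. The 6 near peaks had scores from 50.5 to 198, and in each of these genes except LGR5 the strongest MKN28 peak lay at least 14.6 kb from the start. Close pairs, with a gap under 1 kb, were found at RNF43 (2 in MKN28 and 1 in SNU216), ZNRF3 (3) and AXIN2 (1). Such pairs amounted to 6.90% of the number of peaks in the whole MKN28 list and 5.49% in SNU216, so the 6 MKN28 pairs among 60 peaks were not far from that background.

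At the 100 kb limit of the windows, the peaks just inside were an MKN28 peak of ZNRF3 at 99.7 kb (score 88.3) and an SNU216 peak of CD44 at 98.2 kb (score 58.6). Just outside were an MKN28 peak of ZNRF3 at 100.1 kb (score 113), an MKN28 peak of AXIN2 at 100.9 kb (score 97.5) and the SNU216 peak of TCF7L2 at 101 kb.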

How the data were processed

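TEAD4 ChIP-seq was made from 1 library per line, and the 2 input libraries entered only as the authors' control for peak calling. Per the submitters' processing notes, CASAVA 1.8, Bowtie2 2.0.0 and MACS were used with hg19. No source used here gives settings, the MACS version or the treatment of duplicates. The authors deposited 1 peak list per line with a score per peak, called against the input of that line as the list names state, without pooling. Depth is unknown.

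Start positions were converted to 1-based. Peaks were taken by the gene starts given above, overlap meant at least 1 shared bp, and shares carry exact 95% Clopper-Pearson intervals. Bands and chromosome lengths came from circlize 0.4.16. No test was run, since each line has 1 library. Strand was used where the RefSeq promoter table gave it, and otherwise only the side of the start is stated. The text names, per gene and list, the strongest peak, the peak nearest the start and overlapping pairs; other peaks named were chosen after their values were seen. The search of other pathway genes and of peak sequences was not run, for want of an hg19 annotation and genome here. The members and lists were chosen with earlier results of these data known, and the promoter search and the tiles with 9 or more MKN28 peaks were added after seeing the data. Alternatives were windows of 50 and 200 kb, a score of at least 100, an MKN28 list of equal length, and overlap of 50% or midpoints within 200 bp. Python 3.11.15, numpy 2.4.6, pandas 2.3.3, scipy 1.17.1 and matplotlib 3.10.9 were used. The overlap step was checked on MKN28 peaks moved by set distances, and the window step on made-up peaks.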

Additional observations from a re-analysis of the deposited data

How the results depend on the processing

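The count of 60 MKN28 peaks became 107 within 200 kb and 36 at a score of at least 100. It was 20 in an MKN28 list of equal length. The count of 6 SNU216 peaks became 17 within 200 kb. A wider window or a shorter list changes such counts by itself, but within 200 kb SNU216 grew by a larger factor than MKN28. The ratio of MKN28 to SNU216 peaks was thus lower within 200 kb than the 10 found within 100 kb. Within 50 kb the counts were 43 and 4. Under the 6 alternatives, 5.00% to 10% of MKN28 peaks and 33.3% to 75% of SNU216 peaks had a partner in the other list, all within the main intervals. The interval of the MKN28 share held the share of the whole list within 50 kb (6.98%, 1.46 to 19.1, list 17.1%) and at a score of at least 100 (8.33%, 1.75 to 22.5, list 16.8%), so the separation from the list is lost there. It lay below the list within 200 kb (8.41%, 3.92 to 15.4), under both other overlap rules, by a narrow margin at 50% of both peaks (upper bound 13.9, list 14.1%), and at equal length (10%, 1.23 to 31.7, list 35.2%). The SNU216 count at single genes was 0 at LGR5, ZNRF3, AXIN2, CTNNB1 and TCF7L2 within 50 kb as well, but within 200 kb it was 2 at LGR5, 1 at AXIN2 and 5 at TCF7L2. At CD44 both lines had 2 peaks within 50 kb, and at a score of at least 100 it had 2 SNU216 peaks and 1 MKN28 peak. Taking any bp of a peak in place of its midpoint left 13 of the 14 counts per gene and line equal, and ZNRF3 in MKN28 went from 16 to 17. No replicate could be left out, with 1 library per line. No paired analysis was possible because there is only 1 library per line and antibody. Unknown depth limits every statement on a site called in 1 list.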
